A study of Mus musculus with 2 samples.

Results

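The 10 regulators of the Bcl2 family of apoptosis proteins were followed in the newborn mouse ovary: Bcl2, Bcl2l1, Mcl1, Bax, Bak1, Bcl2l11, Bad, Bid, Bbc3 and Pmaip1. Members were taken by name. Every probe set with a single gene symbol in the array platform's annotation was used when that symbol was 1 of the 10 names. This gave 29 probe sets for 9 of the 10 members, among 18193 genes with a named probe set on the array. Bax had no probe set under that rule and is not analysed here. Total RNA came from ovaries of mice at 2 days of age. One group was the Amhr2(+/+)-SmoM2 control and the other the Amhr2(cre/+)-SmoM2 mutant, and equal amounts of RNA from 8 mice were combined into 1 pool per genotype and measured on 1 array each. Both group labels name SmoM2, an active form of the hedgehog signal transducer Smoothened. They do not say that the active protein is made in both groups. The mutant group has in addition Cre at 1 copy of the locus of Amhr2, the receptor of anti-Müllerian hormone, which is used in gonadal somatic cells. The effects of Cre, of the altered Amhr2 copy and of SmoM2 activation cannot be told apart in this design.

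Proteins of this family decide whether the outer mitochondrial membrane stays intact. Bcl2, Bcl2l1 (Bcl-xL) and Mcl1 hold the pore formers Bax and Bak1 in check, and the BH3-only proteins relieve that restraint or engage the pore formers directly. When the membrane is breached, cytochrome c leaves the mitochondria and caspases are activated through Apaf1. In the perinatal mouse ovary many oocytes die while primordial follicles form, and members of this family set how many survive.

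The values are probe-set signals on a linear scale as deposited by the authors, in arbitrary units. With 1 array per genotype there is no replicate error and no test, and every difference below describes these 2 arrays only. A probe set counted as measured when its higher signal reached 80.7, the median of all values. The log2 ratio of mutant over control was taken after adding 22.2 to both signals, so it understates changes of dim probe sets. Where a gene had several measured probe sets, the one with the highest mean of both signals stood for the gene. The files hold 1 kind of spread, that between measured probe sets of the same gene, which had an SD of 0.384 on the log2 ratio over 5118 genes. With those probe sets put into 4 equal groups by signal, it was 0.472 in the dimmest group and 0.318 in the brightest. This spread holds no error between animals, pools or arrays, and the added 22.2 understates it in dim probe sets.

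Most Bcl2 family genes differed little between the pools, and Pmaip1 lay at the 1.5-fold limit. Of the 9 members with a probe set, 8 were measured. Counted on the log2 ratio after adding 22.2, 0 of the 8 were at least 1.5-fold higher or lower by their representative probe set. In the signals themselves 1 gene, Pmaip1, was 1.62-fold lower, and with a pseudocount of 1 it counts as lower. Among all 12308 measured genes, 9.32% were that much higher in the mutant pool and 7.90% that much lower. With 8 genes, counts of 0 or 1 lie close to that background. The 8 log2 ratios ran from -0.58 for Pmaip1 to 0.28 for Mcl1, with 4 above 0 and 4 below. This split rests on the representative probe sets. For Bcl2, Bcl2l11, Bad and Bid another measured probe set lay on the other side of 0. For Bak1 the mutant signal lay under the minimum. The median of the 8 ratios was -0.02, the same to 2 decimals as the median of -0.02 over all measured genes. The measured probe sets numbered 22 of 29. Counted on the same log2 ratio, 2 of them, both of Bcl2, were past 1.5-fold upward and 0 downward. For 1 of these 2, 1422938_at, the control signal lay under the minimum, and the fold bound is only at least 1.33. Over all measured probe sets with a gene name, 8.81% were that much higher and 9.87% that much lower. Set against the SD of its own signal group, the log2 ratio was smaller than 1 SD for 16 of the 22 probe sets, between 1 and 2 SD for 4, and at least 2 SD for the same 2 Bcl2 probe sets. With the control value of 1422938_at raised to the minimum its log2 ratio was 0.33, under the SD of 0.472.

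**Figure D1:**
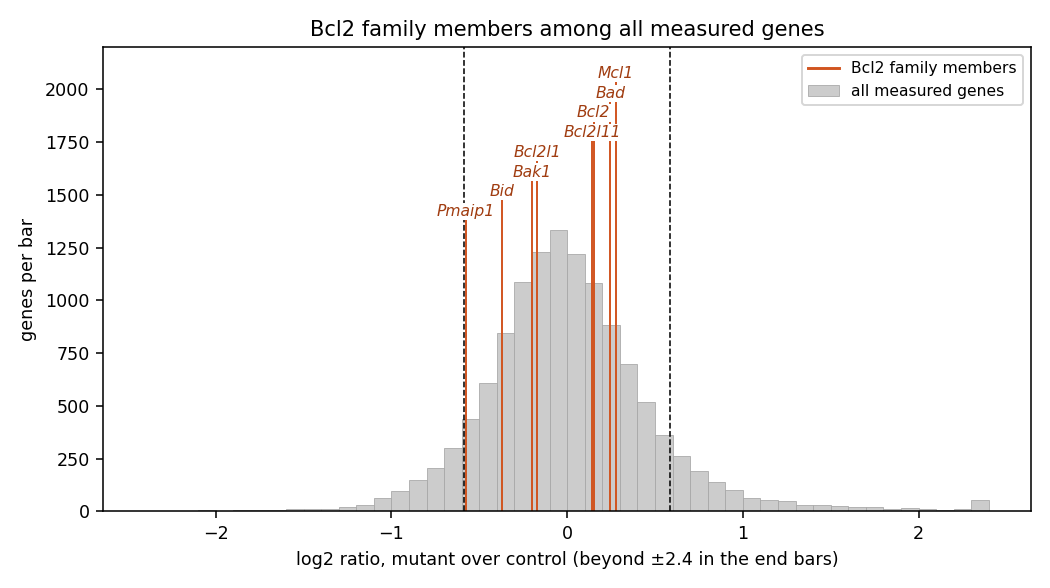
Number of genes (vertical axis) per interval of 0.1 in log2 ratio of mutant over control (horizontal axis) for all 12308 measured genes, with an orange line at the ratio of each of the 8 measured Bcl2 family genes and dashed lines at 1.5-fold. All 8 lines lie between the dashed lines, from -0.58 (Pmaip1) to 0.28 (Mcl1).

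Among the restrainers of apoptosis, Bcl2 (Entrez gene 12043), the founding anti-apoptotic member, had 5 measured probe sets that did not give 1 answer. Probe set 1457687_at read 1800.4 in control and 1999.9 in mutant ovaries (log2 ratio 0.15). Probe set 1440770_at read 816.7 and 909.3 (0.15). Probe set 1437122_at read 318.4 and 312.4 (-0.03). These 3 were nearly level between the pools. The other two were dimmer and were higher in the mutant pool. Probe set 1443837_x_at read 90.3 in control and 221.4 in mutant ovaries, 2.45-fold higher (log2 ratio 1.11). Probe set 1422938_at read 40 and 107.2, at least 1.33-fold higher when the control value is set to the signal minimum (log2 ratio 1.06). The 5 ratios thus spanned 1.14 log2 units. Of the 177 genes with 5 measured probe sets, 25.4% spanned at least as much, and the median span was 0.81. Which transcripts each probe set detects, and whether 1443837_x_at also detects other sequences, was not tested.

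Mcl1 (17210), a short-lived anti-apoptotic protein that sequesters Bak1 and several BH3-only proteins, had 6 measured probe sets, all slightly higher in the mutant pool. The representative one, 1437527_x_at, read 7837.4 in control and 9503.5 in mutant ovaries (1.21-fold, log2 ratio 0.28). Probe sets 1456243_x_at and 1456381_x_at read 8644.4 against 6759.4 and 5629.1 against 4286.0 (1.28-fold and 1.31-fold). Probe sets 1448503_at, 1416880_at and 1416881_at had smaller ratios, 1.08-fold, 1.12-fold and 1.12-fold. The 6 ratios lay between 0.11 and 0.39 on the log2 scale, a span of 0.28. Among the 72 genes with 6 measured probe sets, 98.6% spanned at least as much, and in 11.1% all the ratios lay on 1 side of 0. Probe sets of a gene share the same RNA pools, so their common direction is not replication of the animals. Whether the Mcl1 probe sets ending in _x_at also detect other sequences was not tested.

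Bcl2l1 (12048), the gene of the anti-apoptotic Bcl-xL, rests on 1 of 4 probe sets. Probe set 1420888_at read 427.1 in control and 376.6 in mutant ovaries (log2 ratio -0.17). Its other probe sets, 1426050_at, 1426191_a_at and 1420887_a_at, read between 2.6 and 25 in both pools and were not measured.

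**Figure D2:**
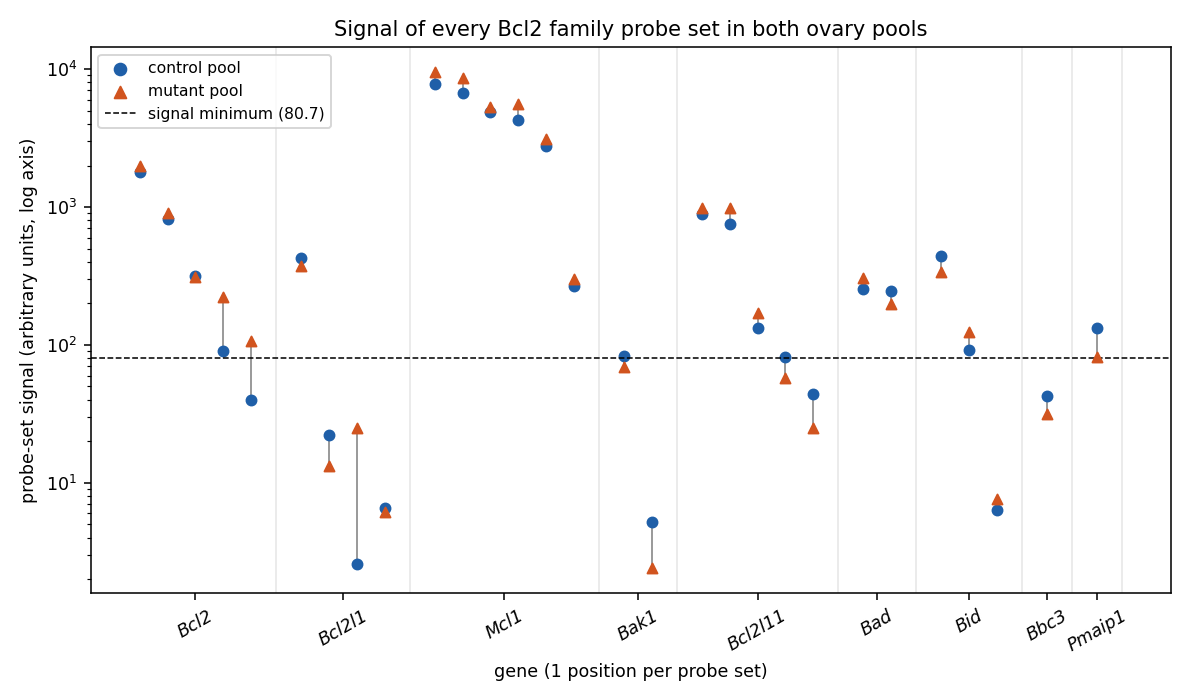
Probe-set signal (vertical axis, arbitrary units, log scale) of all 29 probe sets of the 9 genes along the horizontal axis, with circles for the control pool and triangles for the mutant pool (1 array each) and a dashed line at the signal minimum of 80.7. The symbols lie close together for most probe sets over the line. The last 2 Bcl2 probe sets stand apart, at 221.4 and 107.2 in the mutant pool against 90.3 and 40 in the control pool.

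Of the pore formers only Bak1 (12018), which resides in the outer mitochondrial membrane, had named probe sets, and it was at the edge of measurement. Probe set 1418991_at read 83.3 in control and 69.7 in mutant ovaries (log2 ratio -0.20). The mutant value lies under the signal minimum, so the bound is only at least 1.03-fold lower. Probe set 1425716_s_at read 5.2 and 2.4 and was not measured.

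The BH3-only genes went in both directions. Bcl2l11 (12125), which encodes Bim, a BH3-only protein that binds all anti-apoptotic members, was represented by 1456005_a_at with 884.6 in control and 977.7 in mutant ovaries (log2 ratio 0.14). Probe set 1435448_at read 755.0 and 976.5 (1.29-fold higher, 0.36), and 1435449_at read 132.0 and 171.7 (1.30-fold higher, 0.33). Probe set 1456006_at was lower, at 82.1 and 57.7 (-0.38), with the mutant value under the minimum. The fifth, 1426334_a_at, read 44.0 and 25 and was not measured. For Bim the 3 probe sets with both signals over the minimum were thus higher in the mutant pool, and the fourth measured one was lower.

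Bad (12015), whose protein is kept inactive by phosphorylation downstream of growth factors, had probe sets that opposed each other. Probe set 1416582_a_at read 253.4 in control and 304.7 in mutant ovaries (1.20-fold higher), and 1416583_at read 244.4 and 197.4 (1.24-fold lower). Bid (12122), which caspase-8 cleaves to link death receptors to mitochondria, was split in the same way. Probe set 1417045_at read 444.5 in control and 338.9 in mutant ovaries (1.31-fold lower, log2 ratio -0.37), and 1447873_x_at read 92.0 and 124.1 (1.35-fold higher, 0.36). A further Bid probe set, 1448560_at, read 6.4 and 7.6 and was not measured. No direction can be given for either gene. A span as wide as that of Bad was seen in 28.4% and one as wide as that of Bid in 14.6% of the 3135 genes with 2 measured probe sets.

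Pmaip1 (58801), the gene of Noxa, a BH3-only protein that pairs with Mcl1 and is induced by p53 family factors, had the lowest ratio of the family. Its only probe set, 1418203_at, read 133.3 in control and 82.1 in mutant ovaries, 1.62-fold lower in the signals themselves. Its log2 ratio of -0.58 lay just inside the 1.5-fold limit of 0.585 because of the added 22.2. With a pseudocount of 1 it was -0.69, past that limit, and with a pseudocount at the median it was -0.395, inside it. The mutant signal of 82.1 lay just over the signal minimum, so the fold rests on a dim value. The log2 ratio of -0.58 lay between 1 and 2 SD of probe sets at that signal. Bbc3 (170770), the gene of Puma, another p53-induced BH3-only protein, read 42.6 in control and 31.4 in mutant ovaries and was not measured.

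**Figure D3:**
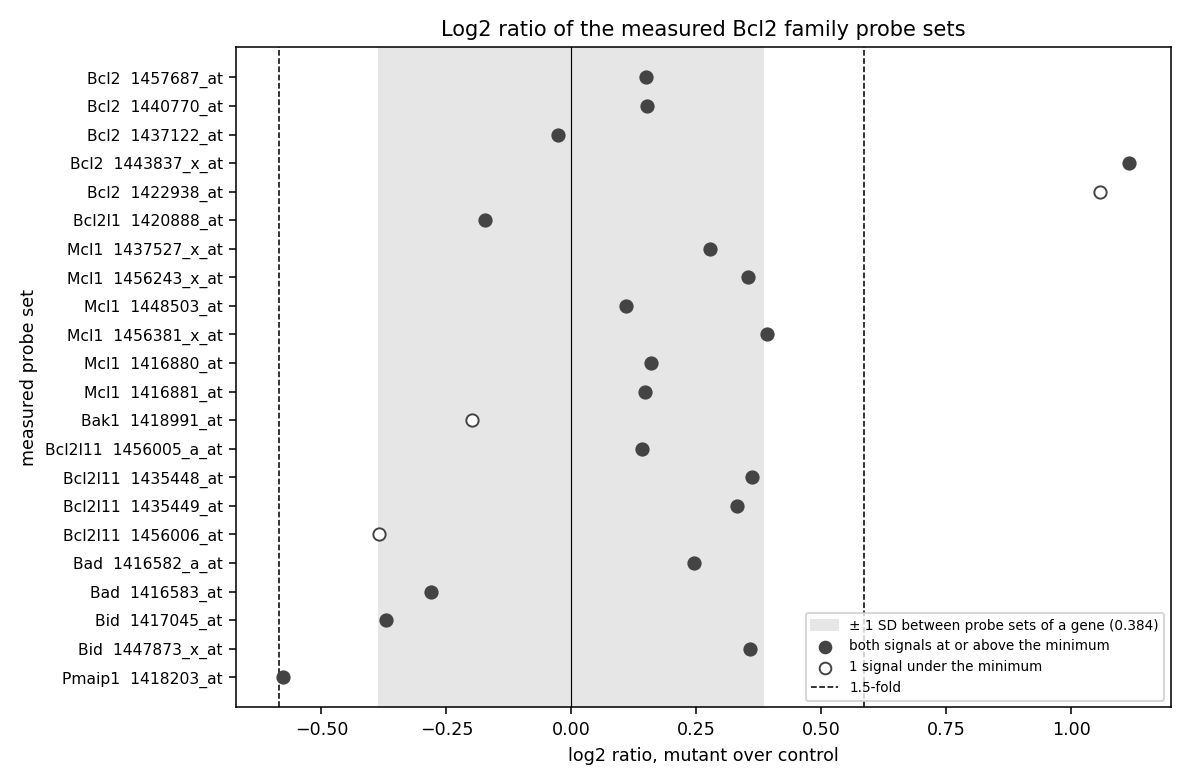
Log2 ratio of mutant over control (horizontal axis) for each of the 22 measured Bcl2 family probe sets (vertical axis), with filled points where both signals reached the minimum, open points where 1 did not, grey for 1 SD between probe sets of a gene (0.384) and dashed lines at 1.5-fold. Only 2 Bcl2 probe sets, at 1.11 and (open, with a control signal under the minimum) 1.06, lie past a dashed line, Pmaip1 lies just inside one, and the 6 Mcl1 probe sets lie together between 0.11 and 0.39.

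The sequence before the transcription start is shown for 3 members. Bcl2 is known as a target of the Gli factors that end the hedgehog pathway, Mcl1 had all its probe sets on 1 side of 0, and Bcl2l11 is known to be transcribed by FoxO factors. Each window is the 250 bases before an annotated start, from RefSeq on GRCm38.p6, read 5′ to 3′ along the gene, and positions count back from -1, the base before the start. Of the 10 members 9 had an entry, with 15 windows. Capitals mark the GC box GGGCGG and the FoxO core TAAACA, on either strand.
Bcl2, chr1:106714291-106714540, minus strand: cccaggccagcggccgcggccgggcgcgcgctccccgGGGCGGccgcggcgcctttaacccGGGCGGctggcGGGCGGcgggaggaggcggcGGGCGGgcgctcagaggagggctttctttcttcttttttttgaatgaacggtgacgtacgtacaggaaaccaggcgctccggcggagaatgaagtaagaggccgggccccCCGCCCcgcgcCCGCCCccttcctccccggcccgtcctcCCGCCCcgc
Mcl1, chr3:95658471-95658720, plus strand: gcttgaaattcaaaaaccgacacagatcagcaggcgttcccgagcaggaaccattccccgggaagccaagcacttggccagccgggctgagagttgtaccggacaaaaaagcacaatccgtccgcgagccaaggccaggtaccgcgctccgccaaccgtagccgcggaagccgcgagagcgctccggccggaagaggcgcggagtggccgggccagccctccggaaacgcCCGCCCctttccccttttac
Bcl2l11, chr2:128125788-128126037, plus strand: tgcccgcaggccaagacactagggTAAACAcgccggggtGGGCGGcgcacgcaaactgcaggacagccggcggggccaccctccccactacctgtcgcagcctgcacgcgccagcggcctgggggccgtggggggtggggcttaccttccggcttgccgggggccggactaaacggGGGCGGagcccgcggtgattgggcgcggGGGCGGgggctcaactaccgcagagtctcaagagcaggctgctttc
The Bcl2 window holds 7 GC boxes and is 74.8% G and C, the Mcl1 window 1 GC box at -20 and 64.4%, and the Bcl2l11 window 3 GC boxes, a FoxO core at -226 and 72.0%. A second annotated start of Bcl2l11 has a window, chr2:128127325-128127574, with 2 GC boxes, 0 FoxO cores and 73.2% G and C. The first was printed for its FoxO core. The median over all 32851 windows was 52.4% G and C. A GC box lies in 10 of the 15 member windows, against 32.7% of all windows, and a FoxO core in 2 (of Bcl2l11 and Bbc3), against 12.0%. The Gli consensus GACCACCCA, searched on both strands, is in 0 of the 15 and in 0.225% of all windows. A match here describes letters and no bound factor, and these letters may lie outside the windows.

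Other genes of the family were mostly within 1.5-fold as well. Signal was sufficient for 8 of 15 listed genes. By the same rule 1 was higher and 0 were lower, near the shares of 9.32% and 7.90% over all measured genes, and the median log2 ratio was -0.18. Bcl2l2, the gene of the anti-apoptotic Bcl-w, had -0.18 on its representative probe set and was 1.78-fold lower on another, at 173.5 and 97.7. Bok, a Bax-like protein described in reproductive tissues, read 344.7 in control and 583.9 in mutant ovaries, 1.69-fold higher (log2 ratio 0.72), on its only probe set. Bmf, a BH3-only protein that binds the cytoskeleton, read 263.1 and 392.7 (0.54). Bcl2l10, a family member found in oocytes, read 897.8 and 702.2 (-0.34), and the BH3-only gene Bik 115.5 and 92.9 (-0.26). Bnip3, which works in mitophagy, read 4567.7 and 3856.5 (-0.24).

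Downstream of the mitochondria, 16 of 18 listed apoptosome, caspase and inhibitor genes were measured, with 0 at least 1.5-fold higher, 1 that much lower and a median log2 ratio of -0.04. These counts are no higher than the shares over all measured genes (9.32% and 7.90%). The lower gene was Birc5, the gene of survivin, an inhibitor of apoptosis family protein that works in cell division, at 5888.5 in control and 3642.1 in mutant ovaries (log2 ratio -0.69). The apoptosome gene Apaf1 read 876.4 and 1260.5 (0.51), and Cycs, the gene of cytochrome c, 6126.6 and 8555.1 on its representative probe set (0.48) but 0.21 on both other measured ones. Htra2, a mitochondrial protease released in apoptosis, had log2 ratios of 0.44 and 0.33, and Birc3 of 0.40. Of 11 death receptor genes 5 were measured and 0 reached 1.5-fold in either direction. Cflar, which blocks caspase-8, had ratios of 0.28 and -0.33 on 2 probe sets, and the receptor Tnfrsf21 one of 0.37. Fadd, the adaptor of death receptors, and Tnfrsf1a, a tumour necrosis factor receptor, had 0.16 and 0.15.

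Among 15 listed genes of the p53 family and its targets, 11 were measured, 0 at least 1.5-fold higher and 1 that much lower, with a median log2 ratio of -0.11. A count of 1 in 11 is near the 7.90% over all measured genes. The lower gene was Trp63, whose protein guards oocyte quality after DNA damage and can induce Pmaip1 and Bbc3. It read 3604.9 in control and 2213.2 in mutant ovaries (log2 ratio -0.70), and 90.6 and 41.1 on a second probe set, where the mutant value lies under the minimum and the bound is at least 1.12-fold lower. Perp and Cdkn1a, both p53 targets, had -0.55 and -0.46, Phlda3 had 0.26 and the kinase gene Atm -0.19. Sesn1, a stress-response gene, had 0.11 on its representative probe set and was 1.58-fold higher on another. Mdm2 had -0.11 on its representative probe set. Another Mdm2 probe set, 1427718_a_at, was lower, at 133.4 and 76.3 (log2 ratio -0.66), with the mutant value under the minimum. Among the 21 measured probe sets of this p53 list, 1 was past 1.5-fold upward (of Sesn1) and 3 downward (of Trp63 and Mdm2). Of 20 listed genes whose products control or bind family proteins, 19 were measured and 0 reached 1.5-fold on the representative probe set, against 9.32% higher and 7.90% lower over all measured genes. Among the 54 measured probe sets of this list, 3 were past that limit upward (of Ywhaz, Akt2 and Vdac1). Another 2 were past it downward (of Usp9x and Huwe1, the latter with its mutant value under the minimum). Each lay beside other probe sets of its gene within the limit. Over all measured probe sets with a gene name the shares were 8.81% higher and 9.87% lower, and neither count is above them. Foxo3, a transcription factor that restrains primordial follicles and can induce Bcl2l11, read 8128.4 in control and 5590.5 in mutant ovaries (-0.54), and -0.17 on its other measured probe set; with quantile normalization the first passed the limit at -0.59. Dynll2, a dynein light chain that binds Bmf, had -0.50, Mapk8, a stress kinase, -0.49 on the representative and between -0.41 and -0.28 on its other probe sets, and Vdac2, the mitochondrial channel that binds Bak1, -0.38.

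**Figure D4:**
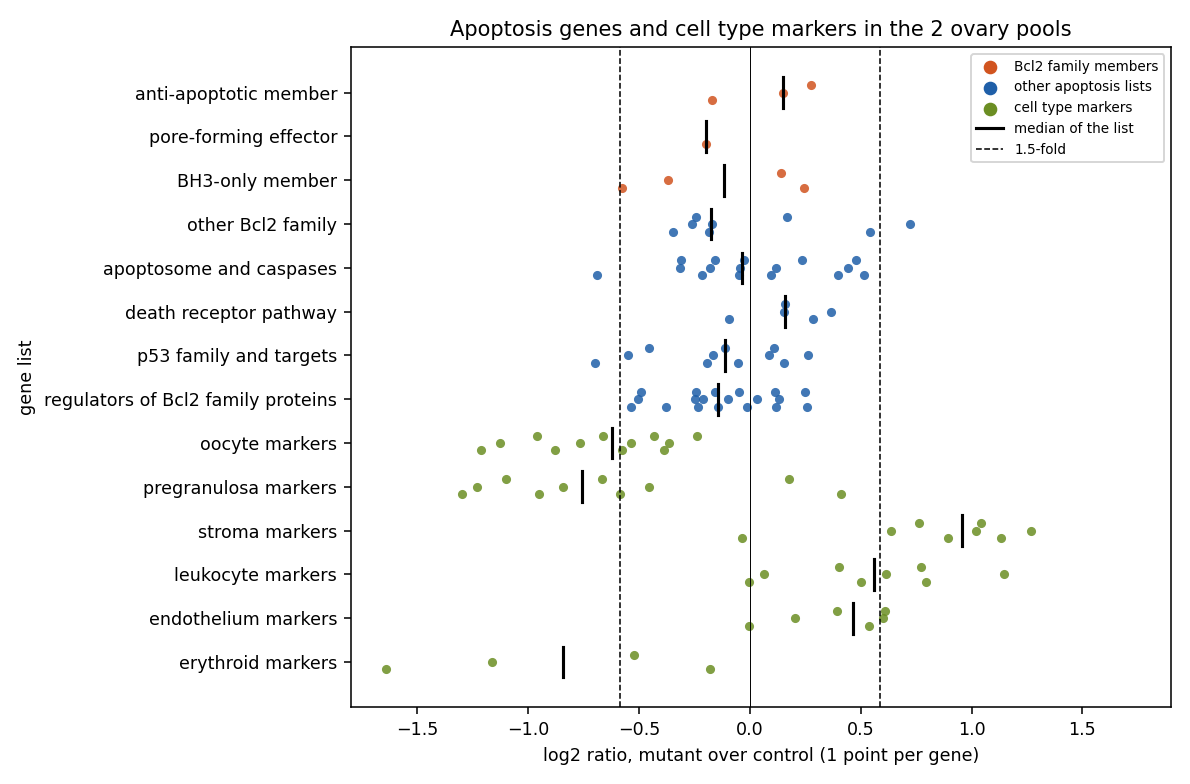
Log2 ratio of mutant over control (horizontal axis) of each measured gene, 1 point per gene, in the Bcl2 family by role, 5 further lists of apoptosis genes and 6 lists of cell type markers (vertical axis), with black bars at list medians and dashed lines at 1.5-fold; the steroidogenic markers, at 2.00 and above, are outside the plotted lists. The family and the other apoptosis lists centre near 0, with medians between -0.20 and 0.16, while markers of oocytes and pregranulosa cells lie lower and those of stroma and leukocytes higher.

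Cell type markers differed between the pools beside these values. In bulk RNA, fewer cells of a type and less RNA per cell cannot be told apart. All 12 oocyte markers had log2 ratios under 0 (median -0.62), and their summed signal was 49914.5 in control and 33010.4 in mutant ovaries. Of 10 pregranulosa markers 8 were under 0 (median -0.76, sums 44157.6 and 31913.4). That list holds Amhr2 itself (8590.9 and 3485.5), the gene whose copy carries Cre in the mutant, and without it the median was -0.67 and the sums 35566.7 and 28427.9. Of 8 stroma markers 7 were above 0 (median 0.96, sums 36841.4 and 62892.7), as were 7 of 8 leukocyte markers (median 0.56, sums 5457.5 and 8883.4) and 5 of 6 measured endothelial ones (median 0.46, sums 2149.2 and 2699.7). All 5 measured steroidogenic markers were higher (sums 7007.1 and 44269.8), and all 4 measured erythroid markers lower (sums 2717.9 and 1283.1). Both pools held the defining markers of the labelled ovary, with Ddx4, the germ cell helicase, at 3322.2 and 1943.5 and Foxl2, the pregranulosa factor, at 8096.6 and 4181.9, and no measured marker was at 0. The signal ratio of the 3′ to the 5′ probe set was 8.48 in control and 10.5 in mutant ovaries for beta-actin, and 3.28 and 4.98 for Gapdh. The part of cell makeup and of RNA quality in the Bcl2 family values was not tested.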

How the data were processed

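RNA from ovaries of 8 mice per genotype was pooled, labelled with biotin and measured on 1 Affymetrix-type expression array per pool with 45101 probe sets. The deposited values are signal intensities per probe set on a linear scale, from 0.1 to 50465.0, made with GCOS per the submitters' processing notes, whose settings were not given in the sources used here. Detection calls were not used. Each array had a mean of 500.0 once 2% of its values were trimmed from either end, and no further scaling was applied.

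The platform annotation gave 1 symbol to 34958 probe sets, several to 932 and none to 9211, and the Entrez IDs of the 9 members found had the same symbols in RefSeq. The 64 array controls were left out of gene counts. The signal minimum of 80.7 is the median and the pseudocount of 22.2 the 25th percentile of all values. A fold with 1 signal under the minimum is a lower bound, the brighter signal over 80.7. Named were all members, the genes of 5 apoptosis lists at 1.5-fold or more with up to 4 further genes per list by absolute log2 ratio, and cell type markers. Bcl2l2, Mdm2, Sesn1, Ywhaz, Akt2, Vdac1, Usp9x and Huwe1 were named because a measured probe set other than the representative passed 1.5-fold. Members and lists were chosen with earlier results of these data known. Calculations used Python 3.11.15, numpy 2.4.6 and pandas 2.3.3 and were tested on simulated data. The 10 alternatives cover the minimum, the pseudocount, the scaling and the choice of probe set. No p-value was computed, and the number of arrays limits the precision.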

Additional observations from a re-analysis of the deposited data

How the results depend on the processing

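The 10 alternative settings left 0 member genes at least 1.5-fold higher, and 0 that much lower except with a pseudocount of 1, where 1 gene, Pmaip1, was lower. The median log2 ratio over the member genes lay between -0.19 (plain probe sets alone) and 0.15 (minimum at the 75th percentile, which leaves 4 genes), so its sign is not settled. Over the 59 measured genes of the added apoptosis lists 1 gene was higher and 2 were lower. Both counts lay under the shares of 9.32% and 7.90% over all measured genes. With no signal minimum the list counts were 2 and 5 of 69 genes. Over all genes they were then 2008 and 1851 of 18193, which are again larger shares than those of the lists. With quantile normalization 3 list genes were lower, Foxo3 being added. With plain probe sets alone 1 was lower (Trp63) and the 1 higher was Akt2 in place of Bok. Over all genes, 1147 higher and 972 lower became 542 and 438 with the minimum at the 75th percentile and 2008 and 1851 with no minimum, and a pseudocount at the median left 610 lower. Of the Bcl2 probe sets, 1422938_at ranged from 0.33, with values under the minimum raised to it, to 1.40 with a pseudocount of 1, and 1443837_x_at from 0.82 to 1.28. Of 145 member probe-set values under the alternatives, 138 stayed within 0.384 of the reported log2 ratio, 7 moved further and 0 changed sign past 1.5-fold. The 145 cover all 29 probe sets, measured or not, under the 5 settings that apply to single probe sets. Among measured probe sets only 1422938_at of Bcl2 moved further. The others that did, of Bak1, Bcl2l1 and Bcl2l11, were not measured. All 6 Mcl1 probe sets stayed above 0, the lowest at 0.08. No paired analysis was possible because each group has 1 array. Signal over background limits Bak1, Bbc3 and 3 of the 4 Bcl2l1 probe sets. It also limits Pmaip1, whose mutant signal lay just over the signal minimum.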

Other observations

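Affymetrix marks with x those probe sets in which some probes may also match other sequences. In Mcl1 the 3 such probe sets had log2 ratios between 0.28 and 0.39, and the 3 plain ones between 0.11 and 0.16. How often the 2 kinds differ as much in other genes was not counted. In Bid the probe set of this kind had 0.36 where the plain measured one had -0.37. In Bcl2 it had 1.11, beside plain ones from -0.03 to 1.06. These groups of probe sets were compared after their values were seen, and no cause was tested.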
